A study of Macaca fascicularis with 132 samples.

Results

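Between 12 and 24 h of culture without added IL-15, blood mononuclear cells of 4 cynomolgus macaques showed higher RNA levels for 459 genes and lower levels for 278. The 24 libraries behind this comparison, 18.2% of the series, are all those labelled as control culture at 24 h or at 12 h. Each time holds 12 libraries, 3 numbered ones from each of animals 38142 and 38155 (female) and 38147 and 38157 (male). Peripheral blood mononuclear cells (PBMCs) were kept outside the body in both groups, and the labels give the control cultures a dose of 0 ng/ml. Other times of control culture (0, 2, 6 and 48 h) serve only as points of comparison. So do cultures treated with heterodimeric IL-15, the cytokine joined to its receptor alpha chain, at 40 ng/ml. The design text speaks of 6 animals, the labels given here name 4, and any others were not analysed here. The sources used here give neither the age of the animals nor the culture medium. The 3 libraries of 1 animal and time were summed, because no label says whether they are separate cultures, which left 4 sums at each time (8 of the 44 sums of the series).

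PBMCs are lymphocytes and monocytes. Once taken into culture they lose the signals of plasma and vessel wall. Freshly plated monocytes attach and begin to mature towards macrophages, short-lived cells die, and resting lymphocytes may lack survival cytokines unless these are added. In a bulk sample, fewer cells of a type and less RNA per cell cannot be told apart. Marker genes of these cell types were not analysed here, because the tables pair no gene ID with a symbol. Genes are therefore described as groups, by direction, level and course, and 4 are named by ID.

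Depth was 17368210 to 87944372 counts per library at 12 h (median 23563200) and 18978031 to 31774749 at 24 h (median 26908600). Genes with at least 1 count numbered 17909 to 20113 per library at 12 h and 18446 to 21115 at 24 h. The deepest library, number 3 of animal 38155 at 12 h, supplies most of that animal's 126025607 counts at 12 h. Libraries of 1 animal and time differed by a root mean square (RMS) of 0.169 to 0.277 on the log2 scale. Libraries of 1 animal at different times differed by 0.37 to 0.423, so in each animal the distance between times exceeded that between its own libraries.

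The first question was which genes changed from 12 to 24 h. Of 18197 genes tested with edgeR's quasi-likelihood test, 459 were higher at 24 h (2.52%) and 278 lower (1.53%) at a Benjamini-Hochberg adjusted p under 0.05, together 4.05%. An unadjusted p of 0.05 was passed by 3260. Genes that rose did so by a median of 1.22 on the log2 scale, a factor of 2.32. Those that fell had a median of -0.76. A change of 1 or more on this scale was reached by 58.2% of the genes that rose (267, or 1.47% of genes tested) and by 42.1% of those that fell (0.643% of genes tested). Rises of 4-fold or more made up 28.1% of the first group and falls of that size 16.9% of the second. The last gene inside the threshold had an adjusted p of 0.04995 and the first outside it 0.05007.

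These counts depend on the animals and on how libraries enter the fit. Without animal 38142 the test called 139 genes higher (0.761% of those tested) and 0.641% lower. Without 38147 it called 214 higher and 136 lower, without 38155 307 and 154, and without 38157 276 and 205. Without the libraries numbered 3 it called 304 and 180. Without the term for the animal, 45 genes were higher and 22 lower. On the 4 differences of the animals alone, limma called 0 genes, with 2632 at an unadjusted p under 0.05. Fitted on the 8 sums of both times alone, 653 genes were higher and 610 lower. The excess of rises over falls, 62.3% of the genes called, then shrank to 51.7%. With every library of the series entered singly it was 49.2%. Over all genes called, neither direction therefore prevailed under every setting. Among called genes that moved by 1 or more (log2), rises outnumbered falls in each fit given here that called any. They numbered 274 and 136 on the 8 sums, and 396 and 207 with every library entered singly.

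Genes that rose were low to begin with. Their median level was 2.32 CPM (counts scaled to a common library size) at 12 h and 5.45 CPM at 24 h, against 7.94 and 8.24 CPM over all genes tested. Those that fell went from a median of 16.6 CPM to 8.68 CPM. Where the level reached 100 CPM at either time the balance was the other way, with 32 genes higher (1.42% of 2250 tested) and 76 lower (3.38%). Between 1 and 5 CPM, 4.38% of 2651 genes were higher and 2.23% lower. The abundant genes that fell did so by little, with a median of -0.38, whereas the abundant ones that rose had a median of 0.72. The plot of change against level shows the wide changes at low levels. The median standard error (SE) of the log2 fold change was 0.485 below 1 CPM and 0.0958 at 100 CPM or more. Scarce genes thus needed wider changes to be called, so the sizes of called changes are not comparable between levels.

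**Figure D1:**
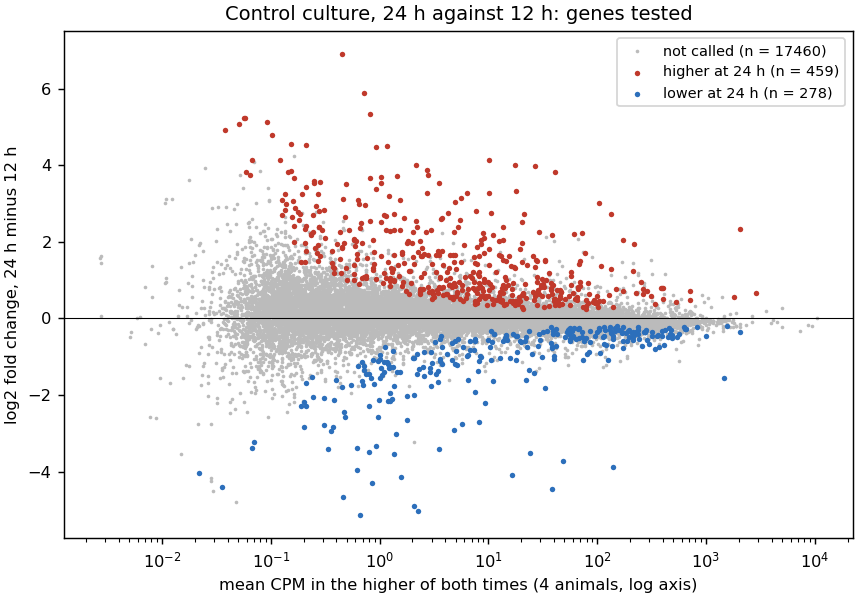
Change of each of 18197 genes from 12 to 24 h in control culture (y axis, log2 fold change) against its mean level in the higher of both times (x axis, CPM, log axis). Red points are the 459 genes higher at 24 h and blue points the 278 lower. Blue points prevail above 100 CPM and red points below it.

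Genes with almost no counts were a small part of the rise, although low levels were common in it. The median level of the genes that rose was 5.45 CPM even at 24 h. At 12 h, 14 of the genes that rose had at most 3 counts over all 4 sums, and 4 of them had none. At 24 h, 4 of the genes that fell had at most 3 counts, and 2 had none. Folds of such genes are lower bounds at best. With 3 counts over the group in place of their own, the medians of both groups were still 1.22 and -0.76, and falls of 4-fold or more numbered 45 in place of 47.

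As a share of each library sum, the genes that rose went from 1.21% ± 0.20 of counts at 12 h to 2.26% ± 0.52 at 24 h (SD, n = 4 animals). In single animals the shares were 1.29% and 2.68% in 38142, 1.21% and 2.57% in 38147, 0.936% and 1.52% in 38155, and 1.39% and 2.26% in 38157. The genes that fell went from 3.14% ± 0.25 to 2.37% ± 0.12. Both shares moved the same way in 4 of 4 animals, as the choice of the genes by their direction makes nearly certain. Even together these genes held under 5% of the counts on average, so most RNA in the cultures came from genes that were not called.

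The 4 named IDs have the highest and the lowest fold change among genes with at least 5 CPM at the higher time, an adjusted p under 0.05 and 1 direction in 4 of 4 animals. That rule left 230 genes that rose and 173 that fell. Being chosen for their size, these changes are descriptions and not independent support. In all 4, the 12 libraries of 24 h did not overlap with the 12 of 12 h. Over all genes tested this held for 0.335% above and 0.115% below. The calls of all 4 are lost on the 4 differences of the animals alone, where limma gave each an adjusted p of 0.072.

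ENSMFAG00000036615 stood at 1.28, 0.106, 0.964 and 0.23 CPM at 12 h in animals 38142, 38147, 38155 and 38157. At 24 h it stood at 19.6, 3.61, 12.8 and 4.94 CPM in the same animals. The lowest library of 24 h (3.37 CPM) was above the highest of 12 h (1.74 CPM). Its log2 fold change was 4.15 ± 0.47 (SE; edgeR adjusted p = 4.9e-07), a factor of 17.8. Before culture it was at 0.0206 ± 0.0139 CPM (SD, n = 4), at 6 h at 0.00765 ± 0.00904 CPM and at 48 h at 17.7 ± 14.5 CPM. It was thus nearly undetected through 6 h. With IL-15 it was already at 11.6 ± 11.2 CPM at 12 h and reached 65.5 ± 41.7 CPM at 24 h.

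ENSMFAG00000002506 went from 1.17, 1.85, 0.207 and 0.91 CPM at 12 h to 22.7, 36.5, 3.47 and 8.19 CPM at 24 h, in the same order of animals. Animal 38155 was the lowest at both times and 38147 the highest. The log2 fold change was 4.02 ± 0.53 (SE; edgeR adjusted p = 6.4e-06). Up to 6 h its mean had stayed between 0.338 and 0.59 CPM, and by 48 h it was at 87.6 ± 61.4 CPM (SD, n = 4). In IL-15 cultures its level was 2.93 ± 3 CPM at 24 h and 13.1 ± 17 CPM at 48 h. The difference between its change with IL-15 and in control culture was -2.68 ± 0.72 (SE) and did not pass the test (edgeR adjusted p = 0.1).

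ENSMFAG00000022887 fell from 20, 108.2, 15.5 and 8.79 CPM at 12 h to 0.96, 4.33, 0.658 and 0.416 CPM at 24 h. Animal 38147 stood far above the other 3 at both times. Its log2 fold change was -4.44 ± 0.51 (SE; edgeR adjusted p = 6.6e-07), and the changes of single animals were close together, from -4.64 to -4.32. This ID was abundant before culture, at 342 ± 263 CPM (SD, n = 4), and at 138 CPM at 6 h, with single animals from 65.7 to 319.8 CPM. In IL-15 cultures it fell from 30.8 ± 35.2 to 1.67 ± 0.845 CPM (-3.80 ± 0.50 on the log2 scale with its SE, edgeR adjusted p = 5.4e-06).

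ENSMFAG00000039636 fell from 8.35, 41.5, 9.73 and 6.13 CPM to 0.669, 1.52, 0.614 and 0.499 CPM, again with 38147 highest at both times. The log2 fold change was -4.09 ± 0.27 (SE; edgeR adjusted p = 2.3e-12). It had been at 255 ± 114.8 CPM before culture (SD, n = 4) and reached 0.462 ± 0.14 CPM at 48 h. With IL-15 it fell from 13.4 ± 11.9 to 0.507 ± 0.26 CPM between 12 and 24 h. Both falling IDs were thus abundant before culture, and both also fell from 2 to 6 h and from 6 to 12 h (edgeR adjusted p = 0.0088 and 0.0018 for ENSMFAG00000022887, 2e-07 and 5.5e-09 for ENSMFAG00000039636).

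**Figure D2:**
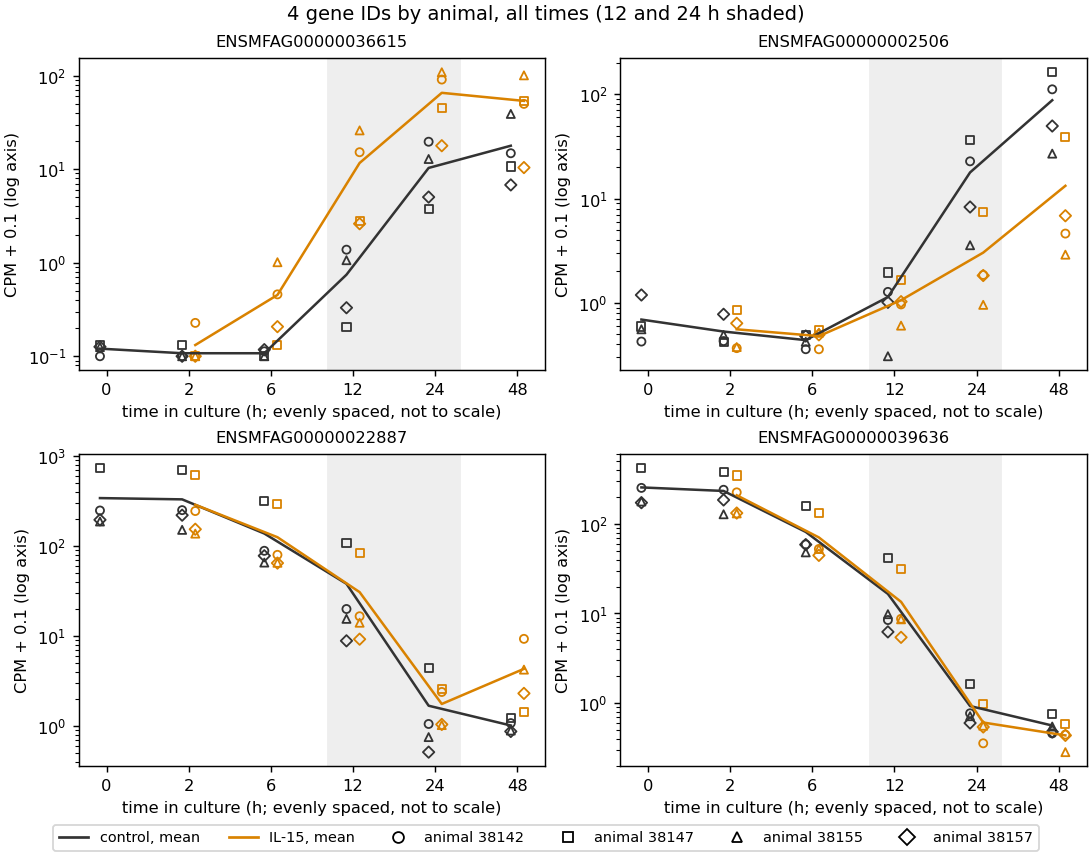
Level of the 4 named IDs (y axes, CPM + 0.1, log axis) by time in culture (x axes, evenly spaced), with a symbol for each of 4 animals and lines for the means of control (black) and IL-15 (orange) cultures. In the shaded span the upper IDs climb and the lower IDs drop in every animal. At 24 h the mean of ENSMFAG00000036615 is 65.5 CPM with IL-15 and 10.2 CPM in control culture, and that of ENSMFAG00000002506 is 2.93 and 17.7 CPM.

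The animals were compared next. Over the 10007 genes that averaged 5 CPM or more, the RMS log2 change from 12 to 24 h was 0.358 in animal 38142, 0.404 in 38147, 0.362 in 38155 and 0.368 in 38157. Across these genes, which are not independent replicates, the changes of 2 animals correlated with r from 0.414 (38142 and 38157) to 0.684 (38142 and 38155). The direction was the same in 4 of 4 animals for 28.3% of all genes tested. The test favours such genes, and among those it called the share was 443 of 459 that rose and 269 of 278 that fell. In each of the 4 animals the 3 libraries of 24 h lay wholly above those of 12 h for 55.8% of the genes that rose (2.46% of all genes tested) and wholly below for 46% of those that fell (1.36%). The median rise of the 459 genes was greatest in 38142 (1.24) and least in 38157 (0.93), and the median fall ranged from -0.79 in 38147 to -0.68 in 38155. Between females and males, 2 animals each, the change differed for 0 genes (edgeR interaction, 1800 at an unadjusted p under 0.05; limma, 0 and 1665).

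Column names carry tokens (Lib1 or Lib2 with a GL number or "merged") whose meaning no label gives, and they were treated as possible batches. They form 5 sets, of which 1 (Lib1 merged) holds a library of 24 h only. The spread was uneven, with 4 libraries of 12 h and 1 of 24 h in Lib1 GL66, and 1 and 4 in Lib1 GL67. In 6 combinations of 1 animal and 1 token set, libraries of both times were present, 8 of 12 h and 10 of 24 h, and these cover all 4 animals. Within the 6 combinations, 94.6% to 98.9% of the genes that rose were higher at 24 h and 94.6% to 98.9% of those that fell were lower. The genes not called had the fitted direction in 62.6% to 73.5%. These shares use the same libraries as the calls. Fitted only within such combinations, 1692 genes were higher and 1594 lower. That fit takes single libraries as replicates, up to 3 of 1 animal and time, so its counts do not measure the spread between animals and are not comparable with those from the sums.

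How the genes had moved earlier was read from 6 h against 0 h, which shares no library with 12 and 24 h. Over all genes tested, 4638 were higher at 6 h than before culture (25.5%) and 4632 lower (25.5%). Of the genes that later rose, 55 were higher at 6 h (12% of 459; 1.19% of the 4638), 196 lower (42.7%; 4.23% of the 4632) and 208 not called. Of those that later fell, 80 were higher at 6 h (28.8% of 278), 42.8% lower and 79 not called. Across 10007 genes, both changes were nearly uncorrelated (r = -0.0504, Spearman's rho = -0.106).

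The courses of these subsets are descriptions, since the split by the call at 6 h and the choice by the change from 12 to 24 h largely fix them. The 196 genes that were lower at 6 h and rose later had a median of 2.78 ± 0.09 log2 CPM before culture (mean and SD of 4 animals), 1.58 ± 0.17 at 6 h, 1.85 ± 0.13 at 12 h and 2.94 ± 0.31 at 24 h. Their median was thus back at about its starting level by 24 h, and at 48 h it was above it, at 3.42 ± 0.32. Whether single genes came back was not tested. The 55 genes higher at 6 h went on from 2.45 ± 0.41 at 12 h to 3.72 ± 0.44. The 208 others were scarce, at -0.79 ± 0.41 at 12 h and 1.03 ± 0.52 at 24 h. Falling genes that were already lower at 6 h (42.8% of the 278) went from 4.65 ± 0.50 before culture to 2.44 ± 0.61 at 12 h and 0.59 ± 0.53 at 24 h. The 80 that were higher at 6 h stood at 3.29 ± 0.05 before culture, 4.66 ± 0.25 at 6 h, 4.26 ± 0.21 at 12 h and 3.66 ± 0.19 at 24 h. Their median change from 12 to 24 h was -0.55, against -1.24 for those lower at 6 h.

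**Figure D3:**
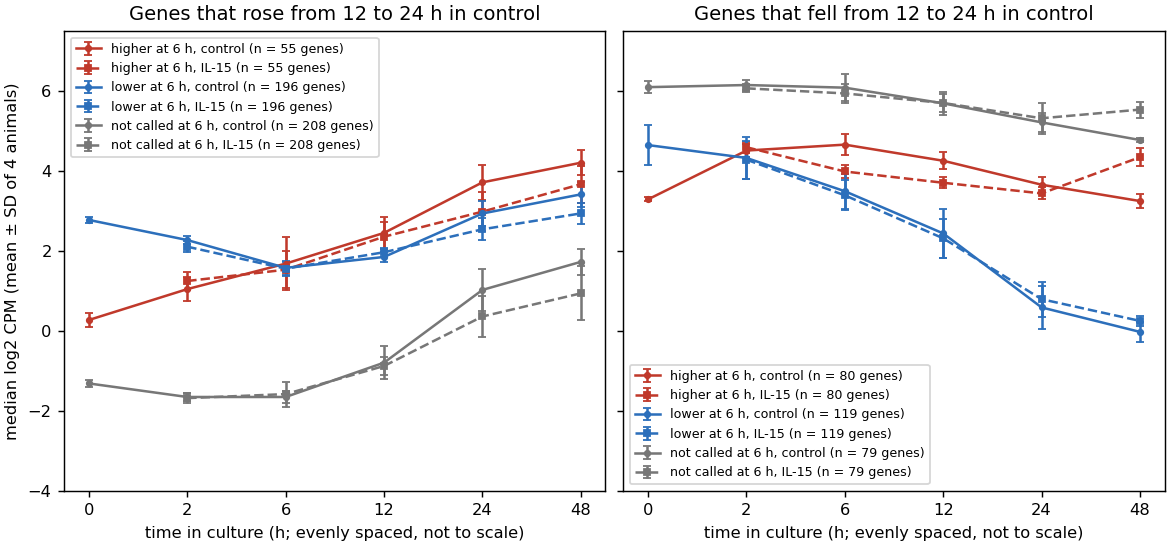
Median log2 CPM (y axis; mean ± SD of 4 animals) by time in culture (x axes, evenly spaced) for genes that rose (left) or fell (right) from 12 to 24 h, split by their call at 6 h against 0 h. Solid lines are control and dashed lines IL-15 cultures. The median of the 196 genes lower at 6 h dips to 1.58, then climbs to 2.94 at 24 h and 3.42 at 48 h. That of the falling genes already lower at 6 h goes on down to 0.59 at 24 h.

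An interval that encloses 12 to 24 h and shares none of its libraries is 48 h against 6 h, with 4170 genes higher (22.9%) and 3659 lower (20.1%). Among the 459 genes that rose, 420 were higher at 48 h than at 6 h (91.5%; 10.1% of the 4170) and 0 lower. Of the 278 that fell, 268 were lower (96.4%; 7.32% of the 3659) and 0 higher. Their median changes over this interval were 1.90 and -1.52, against 0.06 over all genes. Across 10007 genes the changes of both intervals correlated with r = 0.878, in libraries of the same animals. Most genes called from 12 to 24 h were thus on the same side of their 6 h level at 48 h.

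The adjacent steps share sums with this one, so their values are given only side by side. From 6 to 12 h, 765 genes were higher (4.2%) and 618 lower (3.4%), and from 24 to 48 h 386 (2.12%) and 290 (1.59%). Together the first pair of counts was 591 to 782 with any 1 animal left out. The second was 188 without 38142, 226 without 38147, 523 without 38155 and 600 without 38157, against 676 with all animals. The genes that rose from 12 to 24 h had median changes of 0.36 in the step before and 0.36 in the step after. Those that fell had medians of -0.45 and -0.25. The RMS log2 change per animal over 10101 genes was 0.397 ± 0.025 from 12 to 24 h (SD, n = 4 animals), 0.376 ± 0.017 in the 6 h before and 0.406 ± 0.066 in the 24 h after. Both early steps were wider, at 0.825 ± 0.023 from 0 to 2 h and 0.759 ± 0.015 from 2 to 6 h. Whether the step from 12 to 24 h differed from that of 6 to 12 h was tested directly, and it did for 0.264% of genes, 14 upwards (0.0769%) and 34 downwards (0.187%). The 14 had a median change of -0.87 from 6 to 12 h and 1.12 from 12 to 24 h, and the 34 had 0.85 and -0.16. These medians are descriptions, since the genes were chosen by the difference of the steps and both steps use the 12 h sums. The steps are also of unlike length, so a steady rate would count as a difference. The counts of 14 and 34 rest on few animals, with 11 genes in all without animal 38142, 16 without 38147, and 31 without 38155 or without 38157.

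The same interval in IL-15 cultures uses other libraries of the same animals. There, 713 genes were higher at 24 h than at 12 h (3.92%) and 786 lower (4.32%). From the 459 genes that rose in control culture, 171 also rose with IL-15 (37.3%; 24% of the 713) and 0 fell, and 427 had a positive sign (93%, against 51.8% of all genes). Their median change with IL-15 was 0.63. Of the 278 that fell, 166 also fell with IL-15 (59.7%; 21.1% of the 786), with a median of -0.49. Across 10007 genes the changes in both kinds of culture correlated with r = 0.681 (Spearman's rho = 0.59). The count with IL-15 was 362 genes in all without animal 38142, 1073 without 38147, 843 without 38155 and 1119 without 38157, against 1499.

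Opposite changes were few. Among the genes that fell in control culture, 12 rose with IL-15, with median changes of -1.02 and 0.99. In each of these 12 the difference between both changes passed the test, as their choice by opposite calls makes nearly certain. Over all genes, both changes differed for 0.561%, with a more positive change under IL-15 in 96 (0.528%) and a more negative one in 6 (0.033%). The 96 had a median change of -0.27 in control culture and 1.00 with IL-15, at median levels of 3.03 CPM (control) and 5.01 CPM (IL-15) at 12 h. The 6 had medians of 2.22 in control culture and -0.20 with IL-15. Fitted on the 16 sums of 12 and 24 h alone, the test called 151 genes, 75.5% of them with the more positive change under IL-15. Genes with the more negative change were thus more than the 6 given here. In the main fit of all groups, 0 genes were called without animal 38142 (772 at an unadjusted p under 0.05). The main fit called 30 without 38147 and 43 without 38155. Without 38157 the share was 0.565%, against 0.561% with all animals.

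**Figure D4:**
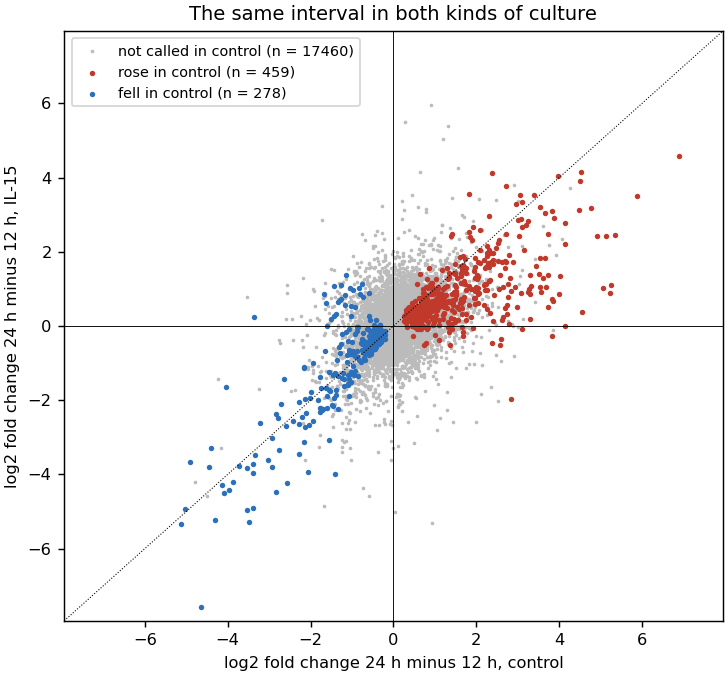
Change of each gene from 12 to 24 h in control culture (x axis) and in IL-15 culture (y axis), both as log2 fold change, with the dotted line marking equal changes. Of the 459 red genes, which rose in control culture, 427 lie above 0 with IL-15, and of the 278 blue genes 12 rose with IL-15 and 166 fell.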

How the data were processed

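Counts per gene, as whole numbers and not normalized, were deposited by the authors in 2 tables that hold the same libraries, one with cynomolgus IDs (38550 rows) and one with rhesus IDs (35432 rows). Qiagen RNeasy Mini served for RNA isolation and KAPA mRNA HyperPrep for libraries, per the labels' protocols. The aligner, counting tool and build were not given in the sources used here. Counts of amplified reads are not independent molecules.

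The cynomolgus table was the main one. Libraries of 1 animal and group were summed (44 sums), normalized by TMM, filtered by filterByExpr (18197 genes) and fitted in edgeR 4.0.16 (R 4.3.3, quasi-likelihood, robust) with 11 groups and the animal as terms. SEs are the fold change over the root of F. Log CPM used a prior count of 2. DESeq2 1.42.0, limma 3.58.1 and other settings were alternatives, and the fit was checked on simulated counts. Sums of the same animal are paired: deviations of its 12 and 24 h sums from the group means correlated at 0.778 or more in 4 of 4 pairs.

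The members, lists and rules were chosen with earlier results of these data known. The 31 gene lists need symbols, and 0 IDs matched the reference table, so they were not run. The 4 named IDs have the 2 highest and 2 lowest fold changes among genes of at least 5 CPM at the higher time, adjusted p under 0.05 and 1 direction in 4 of 4 animals. P-values of the main fit measure the spread left between sums of these animals after the terms for group and animal, over all groups. They are not a measure of how the change itself varied between the animals. The comparisons of 6 h with 0 h and within token sets were added after the files were seen.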

Additional observations from a re-analysis of the deposited data

Results flagged for a closer look

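Both falling IDs had 1 animal far from the other 3 at each time. ENSMFAG00000022887 was at 108.2 CPM in animal 38147 at 12 h, against 8.79 to 20 CPM in the others, and at 4.329 CPM at 24 h, against 0.416 to 0.96 CPM. ENSMFAG00000039636 was at 41.54 CPM in the same animal at 12 h, against 6.13 to 9.73 CPM, and at 1.525 CPM at 24 h, against 0.499 to 0.669 CPM. In all, 13 groups of 4 animals were examined, 4 held such a value, and chance gives about 0.65 for separate groups. These 4 come from 1 animal, 2 IDs and paired times, and so are not separate events. The changes of 38147 itself were not far from those of the others by this measure.

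The change from 12 to 24 h was unlike between IL-15 and control culture in 0.561% of genes by edgeR's interaction test. In control culture, 0.264% of genes had a step from 12 to 24 h unlike their step from 6 to 12 h.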

How the results depend on the processing

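Shares here are of the genes tested in each fit. RLE and upper quartile scaling, DESeq2, limma-voom, no filter on low counts, the 6 control groups alone, the rhesus table, equal weighting of libraries and leaving out outlying libraries or the deepest of the 24 kept the counts of rises and falls within 1.5 times, with 550 (no filter) to 1062 (DESeq2) genes called.

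With a mean of at least 5 CPM, 2.51% of 10195 genes were higher (256) and 1.22% lower. By at least 1 on the log2 scale the shares were 0.755% and 0.206%. The changes with IL-15 and in control culture differed for 0.412%. Scarce genes are left out there. In the main fit, the genes that rose by at least 1 had median log2 CPM of -1.327 at 12 h and 0.576 at 24 h. Those that fell by at least 1 had 0.392 and -1.275. On the 8 sums of both times 3.69% (610) were lower. Without the term for the animal (no replicate block), 0.247% (45) were higher and 0.121% (22) lower, 0.225% and 0.11% by at least 1. The other comparisons then gave 0.687% (12 against 6 h), 0.231% (48 against 24 h), 24.3% (48 against 6 h), 1.08% (IL-15), 0.121% (IL-15 minus control) and 0.0055% (step against step). Library numbers gave little sign of pairing: same-numbered libraries of 1 animal correlated above 0.1 in 4 of 12 pairs (median r 0.0139). With animal and library number as replicate block, single libraries gave 14% (2001) higher and 13.7% (1949) lower. All libraries of the series entered singly gave 9.21% and 9.5%, with 1.3% lower by at least 1. With the token set as a term the shares were 12.5% and 13.4%, and within animal and token set 11.7% and 11%. On the 4 differences of the animals alone, limma called 0 genes in either direction and at either size, with 2632 at an unadjusted p under 0.05, and each of the 4 named IDs had an adjusted p of 0.072. In the other 23 alternatives each named ID passed, with adjusted p up to 0.025. The causes were not tested.

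Leaving out 1 animal or 1 library number gave 0.761% to 2.15% higher and 0.641% to 1.72% lower, 0.586% to 1.33% and 0.378% to 0.67% by at least 1. For the other comparisons only animals were left out, which gave 3.24% to 4.33% (12 against 6 h), 1.03% to 3.29% (48 against 24 h), 1.98% to 6.14% (IL-15), 0% to 0.565% (IL-15 minus control) and 0.0602% to 0.172% (step against step). With 4 animals and a median SE of 0.485 below 1 CPM, small changes of scarce genes were not detectable.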

Other observations

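Taken as 1 group, the genes that fell from 12 to 24 h in control culture had a median of 2.94 ± 0.30 log2 CPM at 24 h (mean and SD of 4 animals) and 2.62 ± 0.18 at 48 h without IL-15. With IL-15 it was 3.06 ± 0.15 and 3.76 ± 0.18. At 48 h the lowest animal with IL-15 (3.55) was above the highest without it (2.84). Among the 80 of these genes that were higher at 6 h than before culture, the median at 48 h was 4.35 ± 0.23 with IL-15 and 3.25 ± 0.17 without it. Among those that were lower at 6 h it was 0.25 ± 0.12 and -0.02 ± 0.24. This gap was not shared by all subsets. The 166 that also fell with IL-15 from 12 to 24 h had a median at 48 h of 2.27 ± 0.24 with IL-15 and 2.56 ± 0.13 without it. Their choice by a fall with IL-15 favours low levels with it. In the same split, the 100 not called with IL-15 were at 4.18 ± 0.18 and 3.165 ± 0.20. The 12 that rose with it were at 5.76 ± 0.50 and 0.857 ± 0.614. Genes that fell in control culture by at least 1 on the log2 scale were at -1.93 ± 0.27 and -1.68 ± 0.31. The 76 falling genes of at least 100 CPM were at 7.16 ± 0.11 and 7.09 ± 0.07. These medians were not tested.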
